A study of Mus musculus with 17 samples.

Results

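Immortalised bone marrow-derived macrophages (iBMDMs) targeted at Jund were examined by comparing the 2 polyA RNA-seq libraries labelled JunDKO with the 2 labelled Scramble, 4 of the 17 samples of the series. Both groups came from a line of C57Bl/6EiJ bone marrow, labelled male and immortalised with BRAF(V600E) and Myc, at passage 3 to 8 and treated with vehicle, and the line carried Cas9 and EGFP. Lentiviral vectors with 2 guides per target and a tagBFP2 reporter were delivered, and the infected cells were sorted for the reporter. Whether clones were then picked was not stated. The JunDKO group carried guides against Jund, whereas the Scramble group carries the genotype label Scramble Control and zsGreen in its titles. Libraries labelled JunKO and Atf3KO, 2 of each from the same line, were used for comparison. Gene models of at least 200 bases with a mean of at least 1 RPKM (reads per kilobase of exon, scaled to mapped reads) over these 8 libraries were tested, which left 10414 of 24453 models.

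JUND is a member of the AP-1 family of basic leucine zipper proteins, which bind DNA only as dimers formed from family members. Such dimers recognise the TRE and CRE motifs at enhancers and promoters and are used by macrophages both at rest and during inflammatory activation. Unlike JUN and FOS, which are immediate early genes, JUND is present in many resting cell types and has been tied in other systems to restrained proliferation and to protection from oxidative stress.

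The targeted gene was checked first. Jund (chromosome 8, 70697739 to 70700616, plus strand, GRCm38) measured 9.19 and 8.33 RPKM in Scramble and 6.94 and 6.07 in JunDKO, and the groups did not overlap, as in 16.6% of the tested models with JunDKO lower and 46.1% with JunDKO higher. Its log2 fold change was -0.38 ± 0.46 with a limma-trend adjusted p of 0.625, so exonic RPKM did not separate the groups by the test, and a frameshifted transcript would still be counted. The paper states that knockout efficiency was verified by western blotting. Those blots were not analysed here, so the groups are described by their labels. Of the other AP-1 monomers Fos alone was called, with 5.46 and 5.60 RPKM against 17.0 and 18.3, a change that was not called once library medians were equalised. Jun measured 17.6 and 18.5 RPKM against 13.5 and 13.5, Junb 55.0 and 39.1 RPKM against 34.7 and 36.9 and Atf3 80.7 and 77.4 RPKM against 84.6 and 87.7, with limma-trend adjusted p values of 0.505, 0.569 and 0.664. Braf and Myc, the genes behind the immortalising oncogenes, were not called, with log2 fold changes of 0.22 and -0.40. Fos was not called without JunDKO replicate 1 (limma-trend adjusted p = 0.132) or JunDKO replicate 2 (0.149) or Scramble replicate 1 (0.11) or Scramble replicate 2 (0.12). Aif1 was not called without JunDKO replicate 2 (limma-trend adjusted p = 0.0502). All 18 macrophage markers were tested, 5 rose (Fcgr3, Mertk, Mrc1, Cx3cr1 and, as deposited only, Aif1) and 0 fell, with 1, the integrin chain Itgam, lower at equal medians, and the defining genes Csf1r, Cd68, Fcgr1 and Adgre1 were not called (log2 fold changes of 0.63, 0.50, 0.32 and -0.66). Marker lists for lymphocytes, for fibroblasts and endothelium, and for mast and erythroid cells each had 0 tested members. Of 12 dendritic cell markers 4 were tested and 0 called, with Flt3, Zbtb46, Cd209a, Ccr7 and Siglech at 0 in all 8 libraries. Of 17 neutrophil and granule markers 4 were tested and 2, Lcn2 and S100a8, fell. Their summed level was 1354 and 974 RPKM in Scramble and 28.6 and 23.5 in JunDKO, with Lcn2 giving most of it in Scramble, while Ly6g, Ngp, Camp, Mpo and Elane were at 0 in all 8 libraries. In bulk libraries fewer cells of a type and less RNA per cell cannot be told apart.

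The smallest step between RPKM values gave depths of 1929987 and 1711541 reads in Scramble and 1553296 and 18444440 in JunDKO, with 81.1% to 83.3% of reads in exons. JunDKO replicate 2 was the deeper library of the pair and held reads of 12533 models against 11925 in replicate 1. Its low counts were distributed differently, with 73 models at 2 reads and 129 at 5 reads against 415 and 170 in replicate 1. Counts of 4 or more that moved by over 1.5 times without 1 library are given with their class, and genes described below that lost their call are named. Bounds on folds for genes at 0 reads in JunDKO use 3 reads at the depth of replicate 1, the shallower library, since how many independent molecules replicate 2 holds is not known from RPKM. Across genes, Pearson's r between replicates was 0.974 in JunDKO and 0.968 in Scramble. Whether they came from separate cultures was not stated, so p values measure the spread between these libraries. Genes were called where limma-trend gave an adjusted p below 0.05, the change reached 2-fold and either group averaged 16 RPKM or more. Log2 fold changes are JunDKO minus Scramble on the log2(RPKM + 1) scale, printed ± SE with 2 libraries per group, and are too small for genes with low values. Pairs of values give Scramble before JunDKO.

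As deposited, 242 models were called lower (2.32% of the tested models) and 295 higher (2.83%). Among the 4719 models with a group mean of at least 16 RPKM these were 5.13% and 6.25%, and at equal library medians 7.73% and 3.56%. Over all tested models the median change was 0.24 on the log2 scale. The genes called lower held 14.7% and 13.9% of exonic reads in Scramble and 3.73% and 3.69% in JunDKO, and the genes called higher held 1.92% and 1.90% and then 6.34% and 6.19%. With library medians set equal, the median was -0.05 and the calls were 365 lower (3.5%) and 168 higher (1.61%). All 242 losses and 168 of the 295 gains were called on both scales, while 127 gains were called only as deposited and 123 losses only at equal medians. Equalising medians moved every log2 fold change down by the same amount. It could therefore add losses and remove gains but hardly the reverse, so the 2 scales do not test the losses separately. Counts below are as deposited unless equal medians are named, and class counts are to be read beside the shares above. Without JunDKO replicate 1 the calls numbered 179 lower and 156 higher, and without JunDKO replicate 2 181 lower and 173 higher. Each such fit leaves a group with 1 library, so its spread is taken from the groups that still have a pair. Of the genes called on both scales, 0 changed sign when any 1 of the 4 libraries was left out. These genes were chosen for a large change in the same libraries, so this was largely fixed in advance and is no separate support.

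**Figure D1:**
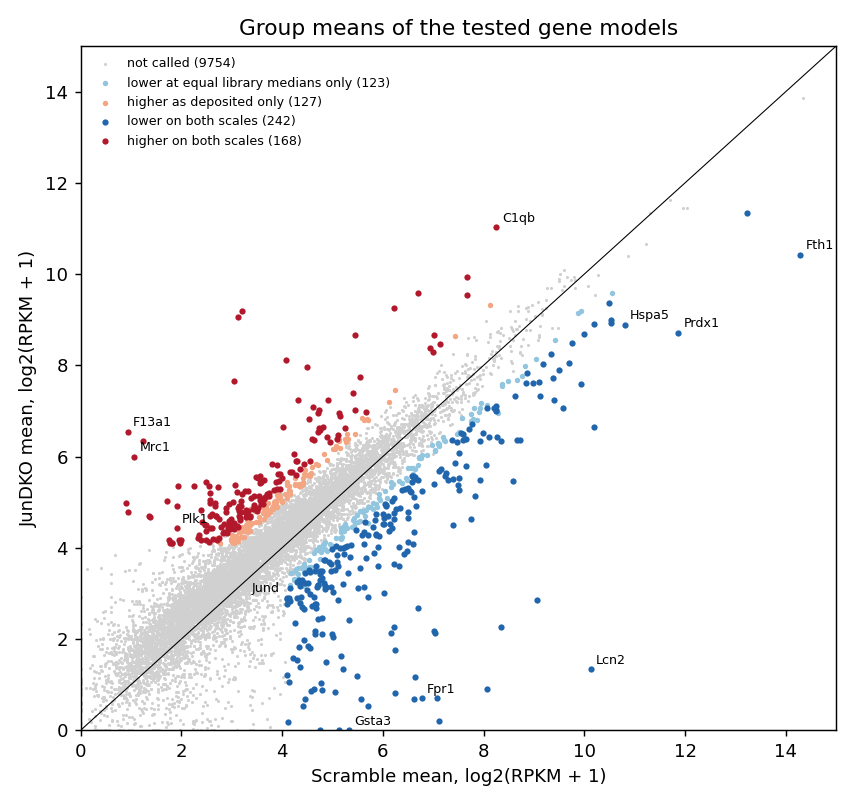
Group means of the 10414 tested gene models, Scramble on the horizontal and JunDKO on the vertical axis, both as log2(RPKM + 1) of the mean of 2 libraries. Dark blue and dark red points were called lower (242) and higher (168) on both scales, pale blue (123) and pale orange (127) points on a single scale, grey points were not called, and the line marks equality.

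Antioxidant genes fell. Of 26 tested targets of NRF2, the factor that drives glutathione and thioredoxin enzymes under oxidative stress, 14 fell and 0 rose as deposited, with a median log2 fold change of -1.52, and at equal medians 16 fell. Slc7a11, the cystine importer that feeds glutathione synthesis, measured 63.9 and 85.4 RPKM in Scramble and 0.629 and 0.877 in JunDKO (log2 fold change -5.42 ± 0.26, limma-trend adjusted p = 1.60e-06). Gclm, a subunit of the enzyme that commits cysteine to glutathione, measured 359 and 405 RPKM in Scramble and 41.2 and 45.0 in JunDKO (log2 fold change -3.12 ± 0.22, limma-trend adjusted p = 2.24e-05). Prdx1, a peroxiredoxin that removes peroxide, measured 3768 and 3651 RPKM in Scramble and 433 and 406 in JunDKO (log2 fold change -3.14 ± 0.27, limma-trend adjusted p = 7.85e-05). In all 3 genes both JunDKO libraries lay below both Scramble libraries, as in 16.6% of the tested models. Gsr, which regenerates reduced glutathione, went from 73.7 and 76.3 RPKM to 2.91 and 1.90, and Srxn1, which repairs oxidised peroxiredoxins, from 221 and 207 RPKM to 24.1 and 23.2. Gsta3, a glutathione transferase, had 33.8 and 44.1 RPKM in Scramble and 0 reads in both JunDKO libraries, at least 27.5-fold lower against that floor. Txnrd1, Cat, Abcc1, Pgd, Gclc and Gstm1 also fell, by 1.11 to 2.30 on the log2 scale. Gstm1 was not called without JunDKO replicate 1 (limma-trend adjusted p = 0.0674) or JunDKO replicate 2 (0.0806) or Scramble replicate 1 (0.0755). Nqo1, a quinone reductase, had 7.38 and 12.1 RPKM against 0 and 0, and passed the adjusted p (limma-trend, 7.40e-05) without reaching 16 RPKM.

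The promoters of Prdx1 and Srxn1 are shown as examples from this class that hold the AP-1 motif TGACTCA more than once. Genes that rose hold it too and are not printed. Arhgef10l, called higher, has 2 matches in a promoter, and Ctla2a and Hfe, also called higher, have 1 each. The windows run from 250 bases before to 50 after a RefSeq start site (GRCm38.p6), are written along the gene's strand, and carry matches on either strand in capitals.
Prdx1 (chr4:116685349-116685648, plus strand): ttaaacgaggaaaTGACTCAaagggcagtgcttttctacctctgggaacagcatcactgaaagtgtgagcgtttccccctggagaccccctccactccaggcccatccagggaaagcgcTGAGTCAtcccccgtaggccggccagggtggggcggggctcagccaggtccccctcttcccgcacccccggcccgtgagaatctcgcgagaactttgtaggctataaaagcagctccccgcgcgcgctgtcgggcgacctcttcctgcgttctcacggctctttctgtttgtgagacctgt
Srxn1 (chr2:152105274-152105573, plus strand): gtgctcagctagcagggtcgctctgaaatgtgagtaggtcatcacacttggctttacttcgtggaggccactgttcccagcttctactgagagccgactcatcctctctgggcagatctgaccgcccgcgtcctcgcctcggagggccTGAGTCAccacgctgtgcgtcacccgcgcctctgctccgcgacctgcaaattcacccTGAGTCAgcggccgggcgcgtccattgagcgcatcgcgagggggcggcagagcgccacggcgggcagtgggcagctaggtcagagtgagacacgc
In Prdx1 the match with its leftmost base 131 bases before the start site lies on the opposite strand and overlaps the NRF2 core motif TGACNNNGC, also on the opposite strand, whose leftmost base is 133 bases before it. A single TGACTCA also stood in the window of Mmp12, a macrophage elastase that measured 119 and 142 RPKM in Scramble and 3.40 and 3.33 in JunDKO, 44 bases before its start site, and in that of Procr, the protein C receptor, 154 bases before its start site and within an NRF2 core.
Mmp12 (chr9:7347124-7347423, plus strand): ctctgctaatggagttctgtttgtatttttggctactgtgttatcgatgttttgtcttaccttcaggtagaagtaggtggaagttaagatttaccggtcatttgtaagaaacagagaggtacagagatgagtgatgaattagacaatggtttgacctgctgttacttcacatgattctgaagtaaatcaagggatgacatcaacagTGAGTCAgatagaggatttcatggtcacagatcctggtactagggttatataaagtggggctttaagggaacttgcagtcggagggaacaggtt
Procr (chr2:155750967-155751266, plus strand): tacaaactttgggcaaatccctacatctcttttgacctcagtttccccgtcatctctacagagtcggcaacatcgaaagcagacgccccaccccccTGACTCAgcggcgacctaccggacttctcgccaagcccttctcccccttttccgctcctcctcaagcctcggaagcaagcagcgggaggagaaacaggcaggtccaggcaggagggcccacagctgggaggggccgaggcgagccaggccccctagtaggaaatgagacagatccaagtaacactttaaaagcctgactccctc
Promoter windows were found for 192 of the 242 genes called lower on both scales, 131 of the 168 called higher and 8069 of the tested models, by symbol. Shares count genes, and a gene counted once if any of its windows held a match. TGACTCA was present on either strand in 22 of the 192 (11.5%) and 9 of the 131 (6.87%), against 4.26% of the tested genes and 5.95% of all 27025 genes with a window. The CRE TGACGTCA was present in 3 of the 192 (1.56%) and 1 of the 131 (0.763%), against 3.83% of the tested genes and 2.03% of all genes with a window. The NRF2 core was present in 6 of the 10 NRF2 targets called lower that had a window, 38 of the 192 (19.8%) and 23 of the 131 (17.6%). The shares were 17.4% of the tested genes and 14.0% of all genes with a window. The NRF2 core was chosen after the class had been seen to fall. All motifs were searched only near start sites, and a match describes letters, not binding.

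Iron handling overlapped with this class. Of 16 tested genes 5 fell and 2 rose as deposited, and 6 fell and 1 rose at equal medians. The median log2 fold change was -0.61. Fth1, the heavy chain of ferritin that stores iron, took 2.52% and 2.02% of exonic reads in Scramble and 0.170% and 0.145% in JunDKO. Hmox1, which releases iron from haem, measured 707 and 623 RPKM against 235 and 183, and Tfrc, the transferrin receptor for iron uptake, measured 65.3 and 81.8 RPKM against 23.6 and 28.4. Slc11a1, an exporter of divalent metal from the phagosome, measured 162 and 142 RPKM in Scramble and 49.8 and 47.2 in JunDKO and also fell. Lcn2, which binds bacterial siderophores, measured 1305 and 929 RPKM against 3.05 and 0. The genes that rose were Hfe, a regulator of transferrin uptake and hepcidin signalling (9.37 and 7.16 RPKM against 38.7 and 32.1), and Slc40a1, the iron exporter ferroportin (18.3 and 22.4 RPKM against 43.4 and 46.3), the latter as deposited only. Tfrc was not called without JunDKO replicate 1 (limma-trend adjusted p = 0.0823) or Scramble replicate 2 (0.0715). Slc40a1 was not called without JunDKO replicate 1 (limma-trend adjusted p = 0.0973) or JunDKO replicate 2 (0.122) or Scramble replicate 1 (0.107) or Scramble replicate 2 (0.0546) or under quantile normalization (0.0252, below the RPKM or fold minimum).

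**Figure D2:**
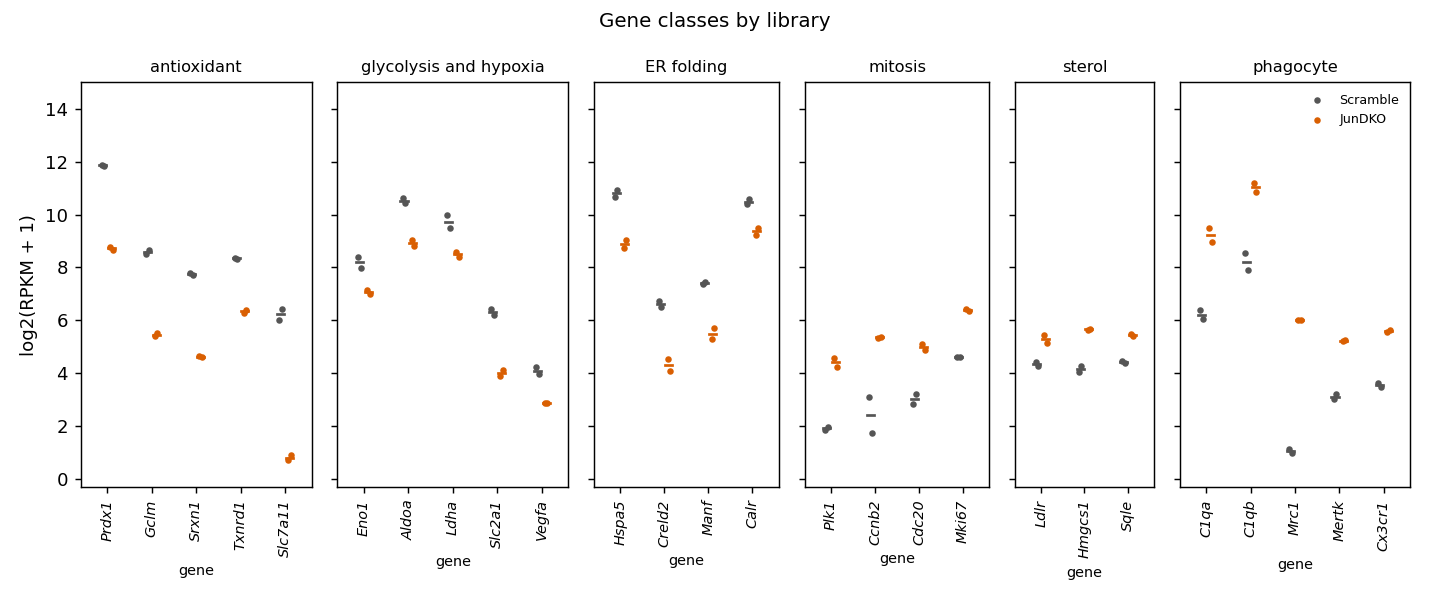
Values of 26 genes in the 2 Scramble (grey) and 2 JunDKO (orange) libraries, as log2(RPKM + 1), grouped by class. Each point is a library and each bar the mean of the pair. Both JunDKO points lie below both Scramble points in the antioxidant, glycolysis and hypoxia, and ER folding panels, and above them in the mitosis, sterol and phagocyte panels.

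Many genes of glycolysis and hypoxia fell. Of 29 tested genes of glycolysis and of targets of hypoxia-inducible factor, which turns on glycolysis and angiogenesis when oxygen is low, 17 fell and 0 rose, with a median log2 fold change of -1.19, and 21 fell at equal medians. Slc2a1, the glucose transporter GLUT1, measured 85.8 and 72.3 RPKM in Scramble and 13.8 and 16.4 in JunDKO (log2 fold change -2.31 ± 0.21, limma-trend adjusted p = 9.97e-05). Slc16a3, which exports lactate, measured 43.3 and 35.1 RPKM in Scramble and 3.52 and 5.08 in JunDKO (log2 fold change -2.93 ± 0.27, limma-trend adjusted p = 1.08e-04). Egln3, an oxygen-sensing prolyl hydroxylase, measured 21.5 and 24.3 RPKM in Scramble and 0.724 and 0.914 in JunDKO (log2 fold change -3.72 ± 0.31, limma-trend adjusted p = 6.34e-05). The groups did not overlap in any of the 3, as in 16.6% of the tested models with JunDKO lower. Among the enzymes of the pathway, Aldoa went from 1572 and 1369 RPKM to 517 and 449, Pkm from 1575 and 1380 RPKM to 521 and 492, and Ldha, which makes lactate, from 1006 and 714 RPKM to 384 and 337. Vegfa, a secreted angiogenic factor and hypoxia target, measured 17.6 and 14.7 RPKM against 6.35 and 6.26. Gapdh was listed at only 4.03 and 1.24 RPKM against 0.456 and 0.576, and like Pgk1 and Pgam1 it has processed copies whose reads may be split, so these 3 models are uncertain. The number of members called fell to 11 without JunDKO replicate 1, 8 without JunDKO replicate 2 and 11 without Scramble replicate 1, and was 18 at equal medians without JunDKO replicate 2. Vegfa was not called without JunDKO replicate 1 (limma-trend adjusted p = 0.0512) or JunDKO replicate 2 (0.0519) or Scramble replicate 1 (0.0493, below the RPKM or fold minimum). Ldha was not called without JunDKO replicate 2 (limma-trend adjusted p = 0.0654) or Scramble replicate 1 (0.0452, below the RPKM or fold minimum). By contrast, 0 of 74 tested nuclear genes of the respiratory chain were called in either direction, against 2.32% lower and 2.83% higher over all tested models. Their median log2 fold change, 0.29, was near that of all tested models.

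Some chaperones and folding genes of the endoplasmic reticulum (ER) fell as well. Of 28 tested genes of the integrated stress and unfolded protein responses, 11 fell and 2 rose, with a median log2 fold change of -0.44, and 12 fell and 2 rose at equal medians. Hspa5, the ER chaperone BiP, measured 1631 and 1933 RPKM in Scramble and 425 and 522 in JunDKO (log2 fold change -1.91 ± 0.23, limma-trend adjusted p = 5.02e-04). Creld2 and Manf, secreted ER stress proteins, measured 105 and 90.8 RPKM against 22.4 and 16.0 and 164 and 171 RPKM against 37.8 and 50.8. Dnajc3, Herpud1, Sdf2l1, Hsp90b1, Calr, Pdia4 and Pdia6, which fold or dispose of ER clients, fell by 1.00 to 1.74 on the log2 scale, and Slc7a11, counted above, was the remaining member. Those that rose were Shmt2, a mitochondrial enzyme of serine and folate metabolism (28.0 and 25.8 RPKM against 109.6 and 87.9), and Asns, which makes asparagine (34.1 and 32.4 RPKM against 87.5 and 77.9), both known targets of ATF4, while Atf4 itself measured 73.0 and 76.7 RPKM against 119 and 95.9 and was not called. The number called lower was 7 without JunDKO replicate 1, 8 without JunDKO replicate 2 and 9 under quantile normalization. Calr was not called without JunDKO replicate 1 (limma-trend adjusted p = 0.082) or Scramble replicate 2 (0.0519) or under quantile normalization (0.0557). Hsp90b1 was not called without JunDKO replicate 1 (limma-trend adjusted p = 0.141) or JunDKO replicate 2 (0.0628) or Scramble replicate 2 (0.117) or under quantile normalization (0.0683). Sdf2l1 was not called without JunDKO replicate 1 (limma-trend adjusted p = 0.0515) or JunDKO replicate 2 (0.0548) or Scramble replicate 1 (0.0527). Pdia4 was not called without JunDKO replicate 2 (limma-trend adjusted p = 0.0503). Pdia6 was not called without JunDKO replicate 1 (limma-trend adjusted p = 0.0505) or Scramble replicate 2 (0.0395, below the RPKM or fold minimum) or under quantile normalization (0.00738, below the RPKM or fold minimum).

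The promoters of Hspa5 and Creld2 are shown because they hold the ER stress element, in which CCAAT and CCACG are 9 bases apart, in capitals below on either strand.
Hspa5 (chr2:34771840-34772139, plus strand): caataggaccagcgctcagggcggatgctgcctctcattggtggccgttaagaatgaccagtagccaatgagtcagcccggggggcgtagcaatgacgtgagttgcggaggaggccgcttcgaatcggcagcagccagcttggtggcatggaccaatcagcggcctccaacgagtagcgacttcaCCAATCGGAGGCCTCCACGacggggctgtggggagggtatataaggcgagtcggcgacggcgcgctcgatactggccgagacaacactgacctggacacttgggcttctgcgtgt
Creld2 (chr15:88819396-88819695, plus strand): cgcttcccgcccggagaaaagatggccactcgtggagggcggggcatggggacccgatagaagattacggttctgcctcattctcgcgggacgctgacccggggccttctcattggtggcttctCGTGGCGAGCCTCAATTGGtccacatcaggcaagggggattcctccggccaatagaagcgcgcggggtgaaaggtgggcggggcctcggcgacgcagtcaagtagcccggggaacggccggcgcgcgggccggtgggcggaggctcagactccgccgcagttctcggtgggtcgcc
This element was present in 6 of the 10 ER and stress genes called lower that had a window, in 7 of the 192 genes called lower on both scales and in 0 of the 131 called higher. The seventh was Syvn1, a ubiquitin ligase of ER-associated degradation named here after its values were seen, which went from 29.2 and 19.9 RPKM to 11.9 and 10.5. Of the 8069 tested genes with a window 13 held the element (0.161%), and of all genes with a window 0.137%. Syvn1 was not called without JunDKO replicate 1 (limma-trend adjusted p = 0.165) or JunDKO replicate 2 (0.211) or Scramble replicate 1 (0.234) or Scramble replicate 2 (0.0702). The element was searched after the class had been seen to fall, and it was defined on genes of this kind, so its presence there is a description only.

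Some interferon-stimulated and NF-kappaB genes fell. Of 39 tested interferon-stimulated genes 6 fell and 0 rose as deposited, namely Ifit1, Ifit2, Ifit3, Rsad2, Usp18 and Cmpk2, and 9 fell at equal medians. The median log2 fold change over the class was -0.50. Ifit2 was not called without JunDKO replicate 1 (limma-trend adjusted p = 0.216) or JunDKO replicate 2 (0.0698) or Scramble replicate 2 (0.205). Of 19 tested genes of NF-kappaB and its feedback 4 fell and 0 rose, and 5 fell at equal medians. Tnfaip3, which encodes the deubiquitinase A20 that restrains NF-kappaB, measured 21.8 and 18.2 RPKM against 5.80 and 5.19, and Irak3, an inhibitor of Toll-like receptor signalling, measured 47.5 and 41.1 RPKM against 8.28 and 7.21. Irg1, whose enzyme makes itaconate, measured 342 and 305 RPKM in Scramble and 4.49 and 3.13 in JunDKO (log2 fold change -6.09 ± 0.21, limma-trend adjusted p = 3.16e-07). Il1rn, the IL-1 receptor antagonist, measured 89.5 and 87.6 RPKM against 15.3 and 13.3. Il1f9, an IL-36 cytokine, had 24.6 and 27.1 RPKM in Scramble and 0 reads in both JunDKO libraries, at least 21.96-fold lower against the floor. Of 15 tested Toll-like receptors and co-receptors and of 5 MHC class II genes, 0 were called in either direction. Over all tested models 2.32% were called lower and 2.83% higher, so 0 calls in lists this short say little about them.

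Receptors changed in both directions. Fpr1 and Fpr2, which sense formylated bacterial peptides, measured 123 and 93.9 RPKM against 0.976 and 0.288 and 41.3 and 46.6 RPKM against 0 and 2.56. In the same list of 17 chemoattractant receptors, Cx3cr1, the fractalkine receptor (11.5 and 10.1 RPKM against 45.9 and 48.0), and S1pr1, a sphingosine 1-phosphate receptor (10.1 and 11.6 RPKM against 44.1 and 39.4), rose. Of 14 C-type lectins Clec4a1, Clec4a2, Clec4e and Clec5a fell, and Mrc1, the mannose receptor, rose. Clec4e, the receptor Mincle for mycobacterial glycolipid, measured 166 and 194 RPKM against 34.9 and 46.0. Without JunDKO replicate 1, or without Scramble replicate 2, 2 lectins were called lower. Of 18 Fc receptors and ITAM partners, 4 fell, among them Pirb and Lilrb4a, which carry inhibitory motifs, and 2 rose, Fcgr3 and Fcgrt, and at equal medians 5 fell. Marco, a scavenger receptor, measured 557 and 503 RPKM against 5.57 and 6.92, whereas Scarb1, the receptor for high-density lipoprotein, rose from 15.9 and 12.1 RPKM to 51.9 and 44.0. Fcgrt was not called without JunDKO replicate 2 (limma-trend adjusted p = 0.0682) or Scramble replicate 2 (0.0519). Clec4a2 was not called without JunDKO replicate 1 (limma-trend adjusted p = 0.0796) or Scramble replicate 2 (0.0515). Clec5a was not called without JunDKO replicate 1 (limma-trend adjusted p = 0.0795) or JunDKO replicate 2 (0.0698) or Scramble replicate 2 (0.0882).

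Adhesion and cytoskeletal genes also moved both ways. Of 37 tested genes of actin, migration and integrins 7 fell and 3 rose as deposited, and 12 fell and 3 rose at equal medians. The number that fell was 4 without JunDKO replicate 1, 3 without JunDKO replicate 2 and 4 without Scramble replicate 1. Itgb2, the beta chain shared by the leukocyte integrins, measured 346 and 268 RPKM in Scramble and 91.7 and 78.5 in JunDKO (log2 fold change -1.83 ± 0.20, limma-trend adjusted p = 2.78e-04). Vim, an intermediate filament protein, measured 884 and 763 RPKM against 287 and 241. The 3 that rose were all integrin chains. Itga6, the alpha chain of laminin receptors, measured 20.6 and 26.4 RPKM in Scramble and 130.3 and 139 in JunDKO (log2 fold change 2.48 ± 0.20, limma-trend adjusted p = 5.77e-05). Itgb5 measured 27.5 and 23.1 RPKM against 125 and 122 and Itgav 21.5 and 30.6 RPKM against 91.4 and 97.2, and their products pair as a receptor for vitronectin. Of 15 tested S100 proteins and annexins 5 fell and 0 rose, including S100a6 (92.9 and 111 RPKM against 6.31 and 4.40) and Anxa2 (1068 and 881 RPKM against 207 and 179), and 7 fell at equal medians. The count was 4 without JunDKO replicate 1 and 3 without JunDKO replicate 2. S100a8, a subunit of the neutrophil protein calprotectin, had 34.8 and 33.2 RPKM in Scramble and 0 reads in JunDKO, at least 6.82-fold lower against the floor.

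Proteases, their inhibitors and clotting factors changed in both directions. Ctsk, a collagen-degrading cathepsin, measured 98.8 and 95.1 RPKM in Scramble and 0 and 1.21 in JunDKO (log2 fold change -6.04 ± 0.33, limma-trend adjusted p = 3.88e-06). In the same list of 14 cathepsins and cystatins 4 rose, among them Lgmn, the lysosomal protease legumain (235 and 171 RPKM against 792 and 686), and Ctsc, which activates granule proteases (17.4 and 19.7 RPKM against 54.7 and 62.0). Ctsf also rose, and Cst3, a cathepsin inhibitor, rose as deposited only. Of 10 tested genes of coagulation and the plasminogen system 4 fell and 3 rose. Procr went from 137 and 121 RPKM to 4.30 and 2.71 and Plaur, the urokinase receptor, from 36.6 and 29.5 RPKM to 14.9 and 11.6, whereas Plau, urokinase itself, went from 1.33 and 4.26 RPKM to 39.0 and 41.2. Gas6, a ligand of the receptor MERTK, measured 45.1 and 39.9 RPKM against 140.0 and 117, and F13a1, a transglutaminase of clotting, 1.22 and 0.609 RPKM against 84.4 and 101. Without JunDKO replicate 2 the number that fell was 2. Plaur was not called without JunDKO replicate 2 (limma-trend adjusted p = 0.0971) or Scramble replicate 1 (0.0741). Cst3 was not called without JunDKO replicate 1 (limma-trend adjusted p = 0.121) or Scramble replicate 2 (0.108). The stefin A cluster of chromosome 16, cysteine protease inhibitors, lost 3 of 5 tested members, and since these paralogs are near-identical their reads may be split among them.

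Some complement genes changed, in both directions, while 8 of the 13 tested were not called, and the median log2 fold change of the list was 0.10. All 3 chains of C1q, which opsonises dying cells, rose. C1qa measured 82.7 and 64.6 RPKM in Scramble and 723 and 503 in JunDKO (log2 fold change 3.03 ± 0.29, limma-trend adjusted p = 1.59e-04), C1qb went from 371 and 238 RPKM to 2313 and 1870 and C1qc from 119.5 and 86.3 RPKM to 859.8 and 681. The groups did not overlap for any chain, as in 46.1% of the tested models with JunDKO higher. C3, the central complement component, went the other way, from 175 and 157 RPKM to 22.2 and 20.9. Mrc1, a marker of resident and alternatively activated macrophages, measured 1.18 and 0.995 RPKM in Scramble and 62.7 and 63.2 in JunDKO (log2 fold change 4.94 ± 0.22, limma-trend adjusted p = 9.81e-07). It belongs to a list of macrophage polarization markers, of which 13 were tested, 4 fell, among them Irg1 and Fpr2, and 2, Mrc1 and Cd86, rose, with a median log2 fold change of -1.01. Cd86, a costimulatory ligand, measured 15.2 and 14.1 RPKM against 38.2 and 37.4. Cd86 was not called without JunDKO replicate 1 (limma-trend adjusted p = 0.0797) or JunDKO replicate 2 (0.0706) or Scramble replicate 2 (0.0677). Mertk, which engulfs apoptotic cells through bound GAS6, measured 7.04 and 8.27 RPKM in Scramble and 36.1 and 36.8 in JunDKO (log2 fold change 2.12 ± 0.21, limma-trend adjusted p = 1.67e-04). Of 18 lineage transcription factors 3 rose and 1 fell on both scales. Maf measured 30.0 and 43.5 RPKM against 85.5 and 109, Cebpa 5.51 and 5.99 RPKM against 20.8 and 26.8 and Id3 13.7 and 6.78 RPKM against 49.6 and 42.5, and Bhlhe41 15.9 and 17.3 RPKM against 7.10 and 5.88. Maf was not called without JunDKO replicate 2 (limma-trend adjusted p = 0.0544). Id3 was not called without JunDKO replicate 1 (limma-trend adjusted p = 0.0537). Bhlhe41 was not called without JunDKO replicate 1 (limma-trend adjusted p = 0.0526) or JunDKO replicate 2 (0.0965) or Scramble replicate 2 (0.0759). Further large gains were Pf4, a platelet chemokine also made by macrophages (10.7 and 21.0 RPKM against 258 and 297), Fcrls, an Fc receptor-like protein (9.68 and 4.72 RPKM against 212 and 187), and Cd83, a surface protein of activated antigen-presenting cells (0.487 and 1.37 RPKM against 27.2 and 25.9). Of 16 tested genes of prostaglandin and leukotriene synthesis 3 rose and 0 fell as deposited, namely Ptgs1, a cyclooxygenase (4.90 and 5.73 RPKM against 28.9 and 31.9), Hpgds, a prostaglandin D synthase (22.4 and 28.6 RPKM against 96.7 and 97.8), and Pla2g15, a lysosomal phospholipase (12.1 and 9.74 RPKM against 43.2 and 41.2). At equal medians 1 member, Alox5ap, fell.

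**Figure D3:**
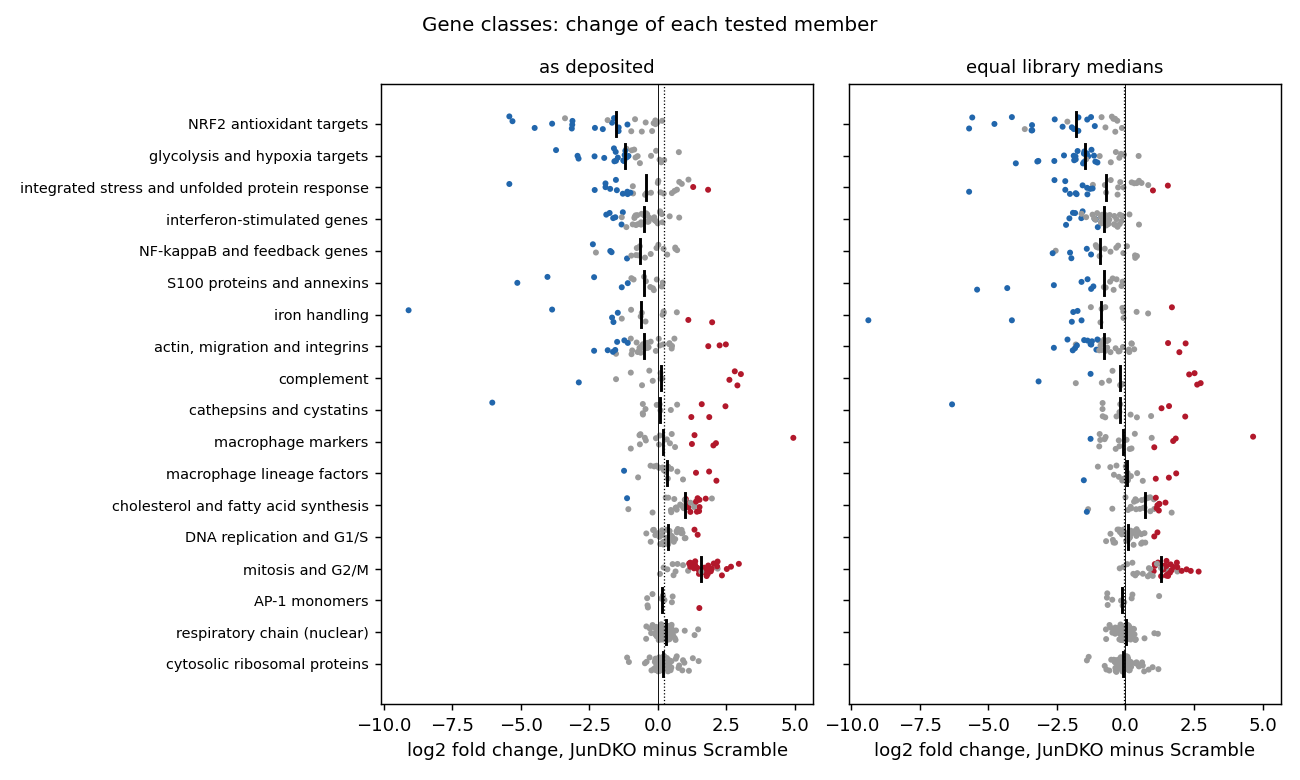
Log2 fold change (JunDKO minus Scramble) of each tested member of 18 gene classes, as deposited on the left and at equal library medians on the right. Blue and red points were called lower and higher and grey points were not, black bars mark class medians and the dotted line the median of all tested models (0.24 and -0.05). Of the 18 classes drawn, which leave out smaller lists with lower medians, the NRF2 class (median -1.52 as deposited) and the mitosis class (1.58) lie farthest to either side, and respiratory chain and ribosomal protein genes centre on the dotted line.

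Mitotic genes rose. Of 40 tested genes of mitosis and G2/M 28 rose and 0 fell as deposited, with a median log2 fold change of 1.58, and 23 rose at equal medians. Without any 1 of the 4 libraries 23 to 25 were called, and at equal medians without JunDKO replicate 2, 17. Plk1, a kinase that drives entry into mitosis, measured 2.59 and 2.92 RPKM in Scramble and 23.1 and 18.0 in JunDKO (log2 fold change 2.51 ± 0.29, limma-trend adjusted p = 4.80e-04). Ccnb2, a mitotic cyclin, measured 7.45 and 2.29 RPKM in Scramble and 39.6 and 40.1 in JunDKO (log2 fold change 2.95 ± 0.39, limma-trend adjusted p = 9.91e-04). Cenpa, the centromeric histone, measured 5.90 and 3.91 RPKM in Scramble and 37.9 and 34.1 in JunDKO (log2 fold change 2.67 ± 0.25, limma-trend adjusted p = 1.49e-04). Top2a, which untangles chromosomes, measured 32.6 and 34.1 RPKM against 85.3 and 89.1, and Mki67, a marker of cycling cells, 23.4 and 23.1 RPKM against 84.6 and 80.3. Genes of the earlier cell cycle gave fewer calls, beside 2.83% of all tested models, and 6.25% of those reaching 16 RPKM, called higher. Of 38 tested genes of DNA replication and G1/S 2 rose and 0 fell, Rrm2 (11.7 and 10.2 RPKM against 33.0 and 30.4) and Tk1 (7.41 and 7.91 RPKM against 21.3 and 20.4), both of which supply deoxynucleotides, and the median was 0.37 against 0.24 over all tested models. Of 20 tested D cyclins, inhibitors of cyclin-dependent kinases and senescence genes 2 fell and 0 rose on both scales, with a median log2 fold change of -0.41. Of all tested models 2.32%, and of those reaching 16 RPKM 5.13%, were called lower as deposited. Cdkn1a, which encodes the p21 inhibitor of cyclin-dependent kinases, fell from 219 and 179.8 RPKM to 87.4 and 77.0, and Mdm2, a ligase that degrades p53 and is itself a p53 target, fell from 90.1 and 95.2 RPKM to 37.8 and 35.1. Cdkn2a, the locus of p16 and p19ARF, had 11.0 and 4.15 RPKM in Scramble and 0 reads in JunDKO, and did not reach the 16 RPKM minimum. Top2a was not called without JunDKO replicate 1 (limma-trend adjusted p = 0.0554) or JunDKO replicate 2 (0.0636). Tk1 was not called without JunDKO replicate 1 (limma-trend adjusted p = 0.0603) or JunDKO replicate 2 (0.0502).

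The promoters of Plk1 and Cdc20 are shown because they hold TTTGAA, the letters of the cell cycle homology region found near start sites of G2/M genes, in capitals on either strand.
Plk1 (chr7:122159185-122159484, plus strand): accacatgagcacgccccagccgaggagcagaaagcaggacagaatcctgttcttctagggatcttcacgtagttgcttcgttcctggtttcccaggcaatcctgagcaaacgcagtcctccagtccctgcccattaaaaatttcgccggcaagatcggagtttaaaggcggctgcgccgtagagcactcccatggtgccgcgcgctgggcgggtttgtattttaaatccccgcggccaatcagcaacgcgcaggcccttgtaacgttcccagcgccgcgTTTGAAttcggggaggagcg
Cdc20 (chr4:118437294-118437593, minus strand): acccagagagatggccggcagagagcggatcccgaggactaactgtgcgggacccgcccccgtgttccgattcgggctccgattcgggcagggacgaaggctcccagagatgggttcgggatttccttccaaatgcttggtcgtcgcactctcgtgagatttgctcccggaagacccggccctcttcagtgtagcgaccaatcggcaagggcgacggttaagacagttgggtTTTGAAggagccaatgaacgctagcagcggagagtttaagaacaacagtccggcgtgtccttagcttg
TTTGAA was present in 20 of the 24 mitotic genes called higher that had a window. It was also in 43 of the 131 called higher on both scales (32.8%) and 27 of the 192 called lower (14.1%). The shares were 14.3% of the tested genes and 20.2% of all genes with a window. This motif too was chosen after the class had been seen to rise.

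Some genes of sterol synthesis rose. Of 30 tested genes of cholesterol and fatty acid synthesis 11 rose and 1 fell as deposited, with a median log2 fold change of 1.00, and 7 rose at equal medians. The number that rose was 4 without JunDKO replicate 1, 6 without JunDKO replicate 2 and 7 without Scramble replicate 2, and at equal medians without JunDKO replicate 2 it was 2. Cyp51, a demethylase of lanosterol, measured 8.24 and 7.27 RPKM in Scramble and 25.8 and 31.0 in JunDKO (log2 fold change 1.74 ± 0.20, limma-trend adjusted p = 4.61e-04). Hmgcs1, which commits acetyl units to the mevalonate pathway, measured 15.5 and 18.3 RPKM against 49.2 and 50.0, and Srebf2, the factor that controls these enzymes, measured 13.6 and 9.89 RPKM against 36.1 and 30.8. The member that fell was Scd2, a fatty acid desaturase, with 62.5 and 68.9 RPKM against 30.0 and 29.0. In a separate list of lipid carriers and efflux, of which 20 were tested, 3 fell and 1 rose as deposited, and 5 fell and 1 rose at equal medians. Abcg1, which exports cholesterol, fell from 36.2 and 30.8 RPKM to 5.99 and 6.53. Apoc2, an apolipoprotein that activates lipoprotein lipase, rose from 8.21 and 8.23 RPKM to 638 and 519, and its model shares a locus with Apoc4-apoc2. Srebf2 was not called without JunDKO replicate 1 (limma-trend adjusted p = 0.127) or JunDKO replicate 2 (0.0788) or Scramble replicate 2 (0.123).

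Cytosolic ribosomal proteins (73 tested) and ribosome biogenesis genes (40 tested) had 0 calls in either direction, against 2.32% lower and 2.83% higher over all tested models. Their median log2 fold changes were 0.20 and 0.08, against 0.24 over all tested models.

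JunDKO was also compared directly with the libraries labelled JunKO and Atf3KO, made with guides against 2 other AP-1 members. Atf3KO replicate 2 carries a later date in its title than the other 7 libraries, and without Atf3KO replicate 1 or 2 that comparison gave 1734 and 1001 calls against 1282 with both. In those libraries the targeted gene was not below Scramble in exonic RPKM, with Jun at 26.2 and 20.5 RPKM in JunKO and Atf3 at 154 and 169 RPKM in Atf3KO. Against JunKO 206 models were called lower (1.98%) and 183 higher (1.76%), and against Atf3KO 577 lower (5.54%) and 705 higher (6.77%). At equal medians these were 2.98% and 1.06% against JunKO and 7.58% and 5.13% against Atf3KO. Of the 242 losses called against Scramble on both scales, 166 were also called lower against JunKO and 121 against Atf3KO, on both scales. Of the 168 gains 89 and 63 were. These comparisons share the JunDKO libraries, so the counts are not independent of each other.

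Counts as deposited, by class, were as follows. ER and stress genes called lower numbered 12 of 28 against JunKO and 10 against Atf3KO, with 2 called higher in each, and Hspa5 was at 2096 and 2607 RPKM in JunKO and 1627 and 1252 in Atf3KO. Genes of glycolysis and hypoxia called lower numbered 16 of 29 against JunKO, with 0 higher, and 8 against Atf3KO, with 1 higher. NRF2 targets called lower numbered 9 of 26 against JunKO, with 0 higher, and 3 against Atf3KO, with 1 higher, and Prdx1 measured 1740 and 1704 RPKM in JunKO and 763 and 409 in Atf3KO beside 3768 and 3651 in Scramble. Mitotic genes called higher numbered 18 of 40 against JunKO and 6 against Atf3KO, and Cenpa measured 4.71 and 6.25 RPKM in JunKO and 27.9 and 21.3 in Atf3KO. Sterol genes called higher numbered 0 of 30 against JunKO and 1 against Atf3KO, with 1 and 5 called lower, and Cyp51 measured 21.9 and 25.0 RPKM in JunKO and 37.7 and 32.4 in Atf3KO, all above both Scramble libraries. Cx3cr1 measured 3.44 and 3.11 RPKM in JunKO and 9.46 and 6.97 in Atf3KO, and JunDKO was called higher against both. C1qb measured 892 and 654 RPKM in JunKO and 1236 and 1555 in Atf3KO, and JunDKO was called higher against JunKO and not against Atf3KO. Marco, at 641 and 649.6 RPKM in JunKO and 574 and 683 in Atf3KO, and Lcn2, at 1423 and 1059 RPKM in JunKO and 1123 and 1223 in Atf3KO, were called lower in JunDKO against both. Mrc1 measured 14.0 and 14.3 RPKM in JunKO and 16.4 and 12.2 in Atf3KO and F13a1 24.0 and 20.1 RPKM in JunKO and 31.7 and 23.6 in Atf3KO, all above both Scramble and below both JunDKO libraries. At equal medians these counts against JunKO and Atf3KO were 12 and 6 for NRF2 targets, 19 and 12 for glycolysis and hypoxia, 12 and 12 for ER and stress genes, and 11 and 5 for mitotic genes. The JunDKO minus JunKO comparison lost calls without either JunDKO library, with 73 higher without replicate 1, 79 without replicate 2 and 107 without JunKO replicate 2. Of the genes plotted by group, Ms4a4a was not called against Scramble without JunDKO replicate 2 (limma-trend adjusted p = 0.0581).

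**Figure D4:**
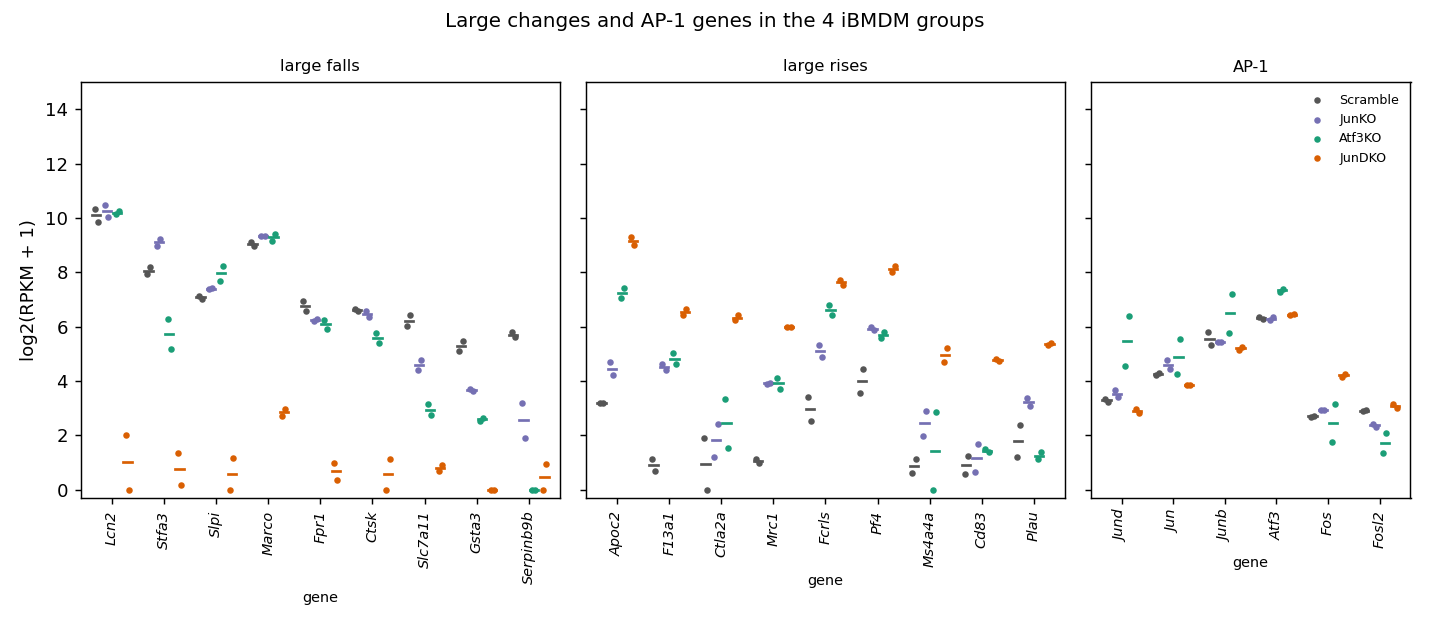
Values of 18 genes with large called changes between JunDKO and Scramble and of 6 AP-1 genes in the 8 iBMDM libraries, as log2(RPKM + 1). Each point is a library, each bar the mean of 2, and colours mark Scramble (grey), JunKO (purple), Atf3KO (green) and JunDKO (orange). Jund lies at 6.07 and 6.94 RPKM in JunDKO and between 8.33 and 83.0 in the other 6 libraries, and the fall of Marco and the rise of Cd83 were each called in JunDKO against all 3 other groups.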

How the data were processed

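Gene expression was measured by polyA RNA-seq. The authors aligned reads to mm10 with STAR, counted exonic reads per gene with HOMER and deposited RPKM values, per their methods. Tool versions, strandedness and the treatment of multi-mapping reads were not given in the sources used here, so paralogs, overlapping and antisense models are uncertain. The members and gene lists were chosen with earlier results of these data known. RPKM values worth up to 50 reads were whole multiples of 1 read to within 0.05 reads or the rounding of the printed value, whichever was larger, which gave depths and read counts. Models of at least 200 bases with a mean of at least 1 RPKM were tested on log2(RPKM + 1) with limma-trend (limma 3.58.1, R 4.3.3), with 8 libraries in 4 groups and 4 residual degrees of freedom, and Benjamini-Hochberg adjustment over all tested models. This test was used because the deposited values are RPKM. Named genes were the 12 largest changes called in each direction on both scales, up to 6 members of each list with the largest changes and the 2 most abundant, all AP-1 monomers, Myc and Braf. Asns, Gclm, Ldha, Plaur, S1pr1, Scd2, Slc40a1, Srxn1, Syvn1, Gapdh, Csf1r, Fcgr1, Adgre1 and others given only within counts were named after their values were seen. The alternatives were equal library medians, quantile normalization, a pseudocount of 5, other filters and thresholds, limma-voom on the recovered reads, fits to the 2 groups compared or without Atf3KO, left-out libraries and a replicate block. Promoter sequences are from RefSeq (GRCm38.p6). Some genes are not reported here.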

Additional observations from a re-analysis of the deposited data

How the results depend on the processing

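Counts of called models moved with the thresholds. For JunDKO minus Scramble (537 calls, 295 higher and 242 lower) a log2 fold change of 2 gave 142 calls, 59 higher and 83 lower, no RPKM minimum gave 997, 562 and 435, and equal library medians gave 168 higher and 365 lower. For JunDKO minus JunKO (389, 183 and 206) the same settings gave 107, 38 and 69, then 736, 362 and 374, then 110 higher and 310 lower. For JunDKO minus Atf3KO (1282, 705 and 577) a log2 fold change of 2 gave 223, 118 and 105, and no RPKM minimum 3060, 1986 and 1074. Leaving out 1 library gave 335 to 468 calls (156 to 267 higher, 179 to 207 lower) against Scramble, 220 to 290 (73 to 139 higher, 141 to 175 lower) against JunKO and 984 to 1734 (578 to 878 higher, 406 to 856 lower) against Atf3KO. Both low totals against Scramble, 335 and 354, came without JunDKO replicate 1 and 2, and against JunKO 221 and 220. At equal medians without JunDKO replicate 2, an alternative chosen after the data were seen, 116 were higher. The cause of these shifts was not tested, beyond fewer libraries and stricter or looser thresholds. With the replicate block, 285 were higher and 235 lower against Scramble, and with the block and without the Atf3KO libraries 320 and 247. The labels do not say that replicate numbers pair libraries. Replicate differences correlated by 0.24 between Scramble and JunDKO, 0.29 between Scramble and JunKO and 0.25 between JunDKO and JunKO, and by -0.17 to -0.29 between Atf3KO, whose replicate 2 has a later date in its title, and the other groups. Of 144 called named genes, 10 to 29 lost their call without 1 library and 0 reversed.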
